A study of Homo sapiens with 42 samples.

Results

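CLDN3, CLDN4, CLDN7 and CLDN11, 4 of the 8738 genes in the table, were taken by their symbols and followed across 14 groups of pancreatic cancer cells. The libraries hold mRNA of the established human lines MiaPaCa-2 and PANC-1, kept in DMEM at passages 12-15. Each line was left untreated or received fluvastatin, lovastatin or simvastatin, every drug at 2 and at 20 µM. The untreated cells of each line are labelled as its control. Each group had n = 3 libraries by the labels, but 2 columns were weighted sums of other columns and were left out, so n = 2 for the control and for lovastatin at 20 µM in MiaPaCa-2. That left 19 independent libraries of MiaPaCa-2 and 21 of PANC-1. Nothing in the labels says that the libraries of a group came from separate cultures, so the spread between them, and the p-values built on it, may be technical. Values are FPKM, in which fragments are scaled by transcript length and by the library's mapped total. Being per length, they can be set side by side between genes. The deposited columns look as if they were also scaled to 1 distribution, a step that no source names. Differences were taken on the log2(FPKM + 1) scale, where a change in a weakly expressed gene comes out too small, and "rose" and "fell" are used where the adjusted p of limma was under 0.05.

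Claudins are small membrane proteins that cross the membrane several times and pair between neighbouring cells to form the strands of tight junctions, which seal epithelial sheets and set which ions pass between cells. CLDN3, CLDN4 and CLDN7 are claudins of simple epithelia, including pancreatic ducts, and CLDN4 is often abundant in pancreatic cancer. CLDN11 is known for the tight junctions of oligodendrocyte myelin and of Sertoli cells. Statins inhibit HMG-CoA reductase and so lower mevalonate, from which cells make both cholesterol and the prenyl anchors that hold many signalling proteins at membranes. Lovastatin and simvastatin are closely related lactones of fungal origin, simvastatin carrying an extra methyl group on its side chain, while fluvastatin is fully synthetic.

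The 250 bases before the annotated start of each of the 4 genes are shown because CLDN3, CLDN4 and CLDN7 rose together in PANC-1 and CLDN11 did not. The sequences are RefSeq's, on build GRCh38.p14, whereas the authors used hg19. Where RefSeq gave 2 windows, for CLDN7 and CLDN11, the one nearer the first GENCODE transcript was taken. Capitals mark matches, on either strand, to the E-box CANNTG, the Snail-type E-box CACCTG (an E-box as well), the GC box GGGCGG and the AP-1 motif TGANTCA.
CLDN3, chr7:73770271-73770520, minus strand: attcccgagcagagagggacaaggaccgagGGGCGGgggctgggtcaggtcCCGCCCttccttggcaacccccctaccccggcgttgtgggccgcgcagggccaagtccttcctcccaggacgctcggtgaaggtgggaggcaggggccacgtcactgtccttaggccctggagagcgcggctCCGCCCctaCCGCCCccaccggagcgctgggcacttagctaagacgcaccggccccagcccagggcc
CLDN4, chr7:73830746-73830995, plus strand: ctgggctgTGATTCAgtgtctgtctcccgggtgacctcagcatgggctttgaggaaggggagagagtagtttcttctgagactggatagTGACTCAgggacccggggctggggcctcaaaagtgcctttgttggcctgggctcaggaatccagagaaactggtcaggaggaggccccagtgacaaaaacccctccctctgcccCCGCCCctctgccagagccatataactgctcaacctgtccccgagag
CLDN7, chr17:7262479-7262728, minus strand: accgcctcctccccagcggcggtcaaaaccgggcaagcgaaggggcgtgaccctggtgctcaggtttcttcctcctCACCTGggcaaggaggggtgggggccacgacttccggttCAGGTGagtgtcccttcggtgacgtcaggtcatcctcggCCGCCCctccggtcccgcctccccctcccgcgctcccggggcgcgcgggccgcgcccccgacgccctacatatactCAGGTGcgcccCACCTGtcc
CLDN11, chr3:170418618-170418867, plus strand: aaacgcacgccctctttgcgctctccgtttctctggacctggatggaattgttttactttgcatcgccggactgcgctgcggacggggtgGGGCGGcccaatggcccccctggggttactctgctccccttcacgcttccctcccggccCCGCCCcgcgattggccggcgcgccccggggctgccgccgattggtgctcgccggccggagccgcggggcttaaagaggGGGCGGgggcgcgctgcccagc
CLDN3 held 4 GC boxes and no other motif searched. CLDN4 held 2 AP-1 motifs, TGATTCA and TGACTCA, and 1 GC box. CLDN7 held 4 E-boxes, all of the Snail type, and 1 GC box. CLDN11 held 3 GC boxes. Of 35116 RefSeq windows of the same length, 61.8% held an E-box, 17.5% a Snail-type E-box, 42.6% a GC box and 6.57% an AP-1 motif. GC content was 71.6%, 58.8%, 71.2% and 71.2% for CLDN3, CLDN4, CLDN7 and CLDN11, against a median of 58% over all windows. In RefSeq's gene order CLDN3 and CLDN4 are direct neighbours on chromosome 7, with ABHD11 on the other side of CLDN3. In the GENCODE annotation CLDN7 shares 38 bases with ELP5 on the opposite strand and 2187 bases with AC003688.1 on its own strand, and CLDN11 shares 35866 bases with AC026316.5 on its own strand. No source used here says whether the authors counted by strand, so fragments from shared stretches cannot be told apart.

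Some libraries stood apart. Comparisons with the PANC-1 control or with fluvastatin at 2 µM in MiaPaCa-2 rest on them. For many of these comparisons, but not all, the values without those libraries stand beside the main results. To describe this, 36 genes with a median of at least 20 FPKM in MiaPaCa-2 and at most 1 FPKM in PANC-1 were taken, members excluded. In PANC-1 control 3 these genes stood at a median of 21% of their MiaPaCa-2 level, and all 36 reached 3 FPKM. In the other 20 PANC-1 libraries the median was 0.0986% to 2.39% and 0 to 9 of the genes reached 3 FPKM. The highest of those 20 were the library of simvastatin 20 µM replicate 3, at 2.39%, and the 3 libraries of simvastatin 2 µM, at 1.24% to 2.15%. In the other direction, the 65 genes that marked PANC-1 by the same limits had medians of 0.3% to 2.27% in the MiaPaCa-2 libraries, highest in control replicate 2. In these libraries 0 to 9 of the 65 genes reached 3 FPKM. Fluvastatin 2 µM replicates 2 and 3 had 9 and 6 such genes, at medians of 0.95% and 1.32%, and simvastatin 20 µM replicate 1 also had 6. Fluvastatin 2 µM replicates 2 and 3 of MiaPaCa-2 had EPCAM, an epithelial adhesion molecule, at 29.3 and 19.3 FPKM, while the other MiaPaCa-2 libraries had at most 2.04 FPKM. The lines kept keratin mRNA throughout, with KRT8 between 250 and 591 FPKM in MiaPaCa-2 and between 398 and 663 FPKM in PANC-1. CDH1, which encodes E-cadherin, had a median of 0.49 FPKM in MiaPaCa-2 and 34.9 FPKM in PANC-1, so that CDH1, and EPCAM outside those 2 libraries, were low or near 0 in MiaPaCa-2. In each MiaPaCa-2 library 78 to 178 genes shared the lowest listed value, which was 0.0129 to 0.0952 FPKM, and a gene at that value is called listed at the minimum here.

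**Figure D1:**
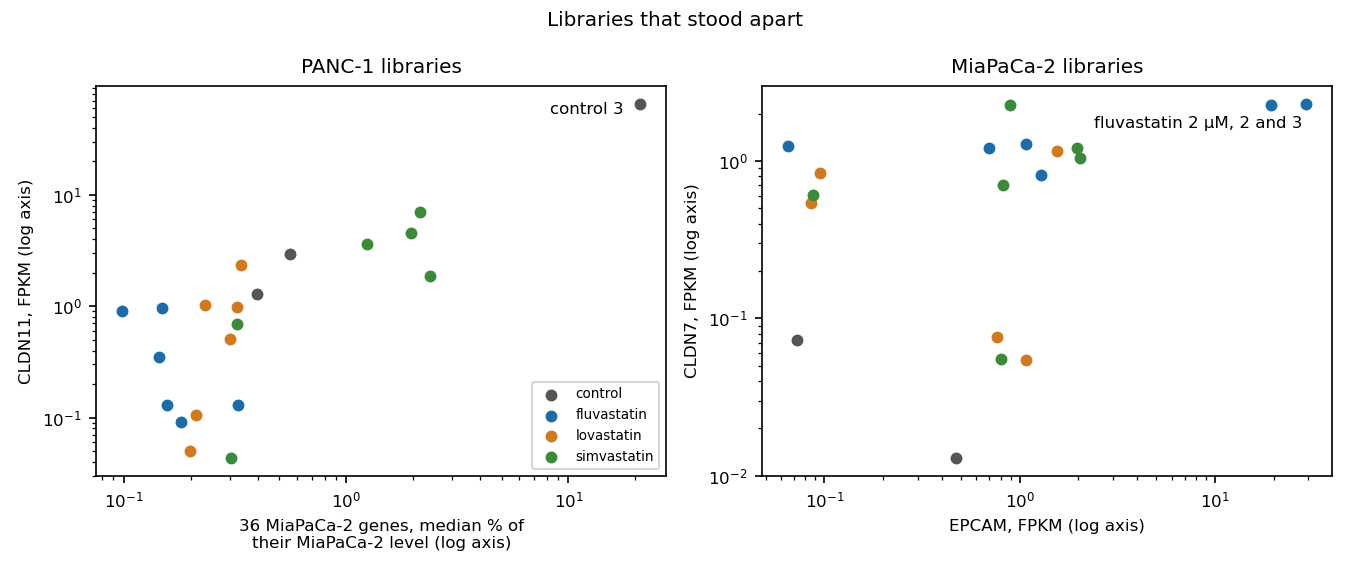
Left, CLDN11 in each PANC-1 library (FPKM, log axis) against the median level of 36 MiaPaCa-2 genes as a percentage of their MiaPaCa-2 level (log axis). Right, CLDN7 against EPCAM in each MiaPaCa-2 library (FPKM, log axes). PANC-1 control 3 lies at 21% and 65.6 FPKM, and fluvastatin 2 µM replicates 2 and 3 of MiaPaCa-2 are the only MiaPaCa-2 libraries with EPCAM above 2.04 FPKM.

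Untreated, the lines differed in which claudins they carried. CLDN4 was abundant in both, at 42.4 ± 2.31 FPKM (SD, n = 2) in MiaPaCa-2 and 66.9 ± 3.14 FPKM (SD, n = 3) in PANC-1. CLDN7 was at 35.2 ± 6.24 FPKM in PANC-1 and listed at the minimum in both MiaPaCa-2 controls. CLDN3 was at 2.69 ± 0.857 FPKM in PANC-1 and at 0.0725 and 0.163 FPKM in MiaPaCa-2. In the joint fit the difference, MiaPaCa-2 minus PANC-1, was -0.64 for CLDN4 (SE 0.057, adjusted p = 3.9e-11). It was -5.1 for CLDN7 (SE 0.27) and -1.7 for CLDN3 (SE 0.24), and these 2 values are a description with no test. CLDN3 reached 1 FPKM in only 2 of 19 MiaPaCa-2 libraries and passed the joint filter through PANC-1, and CLDN7 was at the minimum in both MiaPaCa-2 controls. Without PANC-1 control replicate 3 the values for CLDN4, CLDN7 and CLDN3 were -0.68, -5.25 and -1.83. The sizes for CLDN7 and CLDN3 depend on the pseudocount, since both were at or near the listed minimum in MiaPaCa-2, and were -7.96 and -3.67 with 0.1 in place of 1. Of all genes tested, 28.7% were called lower in MiaPaCa-2. CLDN11 ran the other way, at 236 and 252 FPKM in the MiaPaCa-2 controls and at 2.92, 1.29 and 65.6 FPKM in the PANC-1 controls. CLDN11 was taken up as a claudin expressed mainly in MiaPaCa-2, so this contrast is a description with no test.

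**Figure D2:**
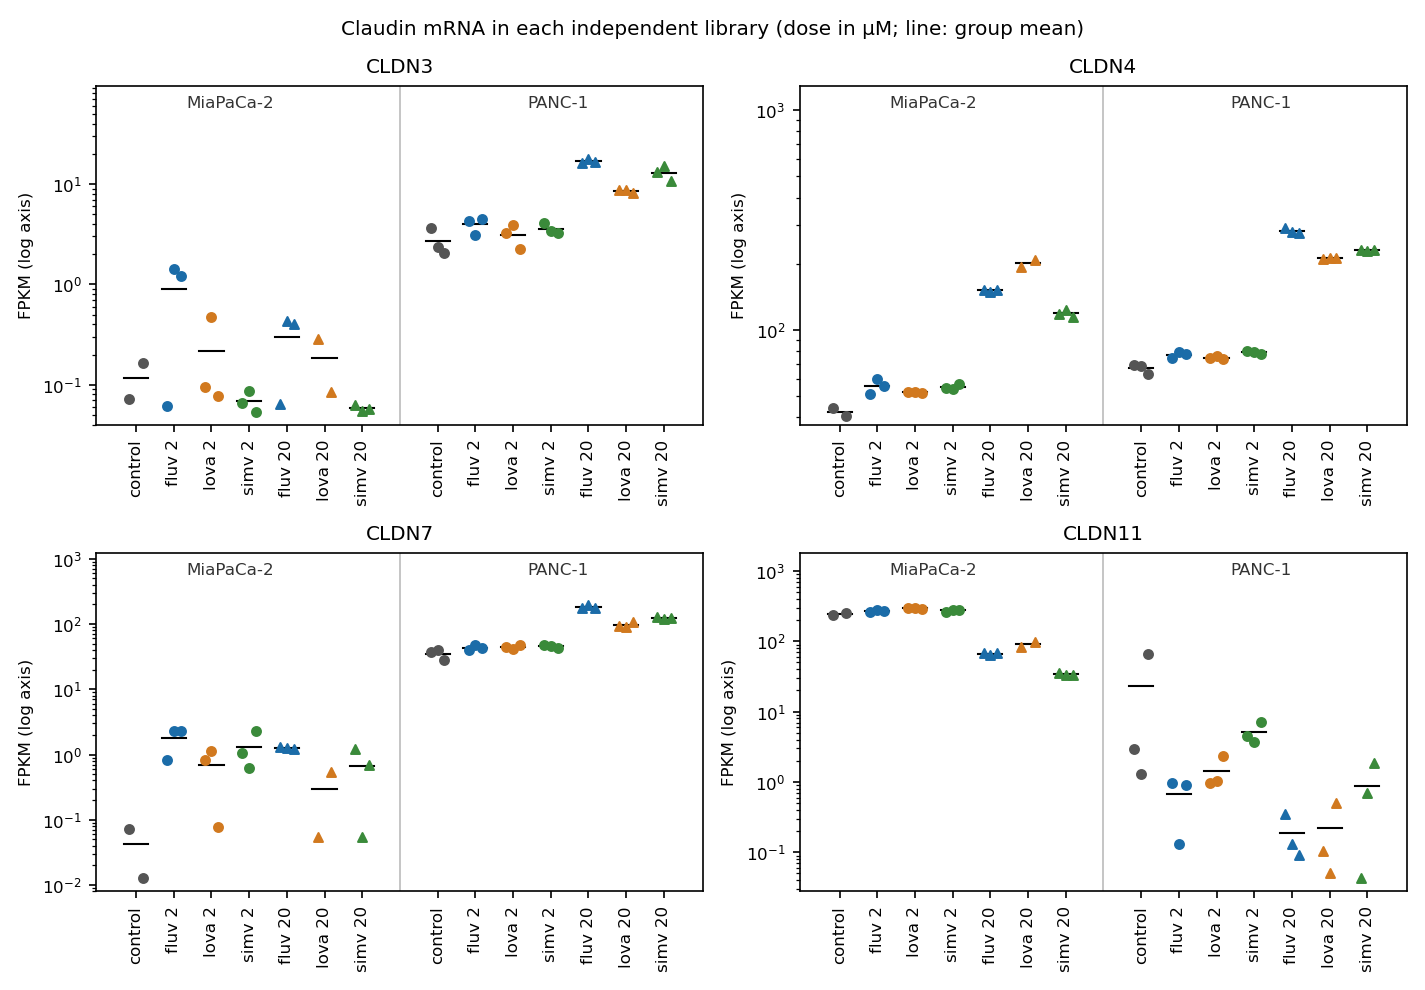
FPKM (log axis) of the 4 claudins in each independent library, by line, statin and dose in µM, with circles for control and 2 µM, triangles for 20 µM and a bar at each group mean. CLDN4 libraries at 20 µM all lie above those of the same line at 0 and 2 µM, and CLDN11 in PANC-1 control 3 lies at 65.6 FPKM.

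CLDN4, a claudin that limits the passage of sodium between cells, rose with every statin at 20 µM in both lines. In MiaPaCa-2 its level was 44.1 and 40.8 FPKM in the control libraries. With 20 µM it was 153, 149 and 153 FPKM with fluvastatin, 194 and 207 FPKM with lovastatin, and 119, 123 and 115 FPKM with simvastatin. No library of the 20 µM groups overlapped the control or the 2 µM groups, and the 3 statins did not overlap each other. The differences from control were 1.81 with fluvastatin (SE 0.071, adjusted p = 2.5e-12), 2.21 with lovastatin (SE 0.077, adjusted p = 1.4e-12) and 1.46 with simvastatin (SE 0.071, adjusted p = 3.7e-11), or 3.51, 4.64 and 2.76 times the control. Of the 8534 genes tested in MiaPaCa-2, 32.9%, 28.8% and 32.2% were called higher in these 3 comparisons, and 18.6% in all 3. In bulk RNA, a change in every cell and a change in the share of cells that carry the mRNA cannot be told apart.

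At 2 µM CLDN4 in MiaPaCa-2 had 51.1, 60.0 and 55.6 FPKM with fluvastatin, 52.4, 52.3 and 51.7 FPKM with lovastatin, and 54.2, 54.0 and 56.6 FPKM with simvastatin. All 9 libraries lay above both controls. The differences of 0.38, 0.29 and 0.36 were called (adjusted p = 0.00049, 0.0032 and 0.00058), where 20.9%, 21.9% and 21.7% of all genes were called higher. The lovastatin call was lost without control replicate 2 (0.24, adjusted p = 0.054). The fluvastatin value was 0.26 (adjusted p = 0.036) without replicates 2 and 3 of that group. From 2 to 20 µM CLDN4 rose further, by 1.43 with fluvastatin, 1.92 with lovastatin and 1.1 with simvastatin (SE 0.063, 0.071 and 0.063, adjusted p at most 2.6e-10), beside 33.1%, 29.3% and 35.4% of all genes called higher.

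In PANC-1 CLDN4 had 69.0, 68.4 and 63.3 FPKM in the control libraries. With 20 µM it reached 292, 279.8 and 276 FPKM with fluvastatin, 210.1, 213 and 212 FPKM with lovastatin, and 232, 229 and 230.0 FPKM with simvastatin. The 3 statin groups again lay apart from each other and from every lower dose. The differences from control were 2.06, 1.65 and 1.77 (SE 0.05 each, adjusted p = 3.5e-16, 2.6e-14 and 5.7e-15), and 2.02, 1.61 and 1.73 without control replicate 3. Of the 8615 genes tested, 32.5%, 23.9% and 29.4% were called higher. At 2 µM the group means were 77.0 ± 2.55, 74.5 ± 1.19 and 79.3 ± 1.4 FPKM (SD, n = 3 each), and all 9 libraries lay above the 3 controls. The difference was called with fluvastatin (0.2, adjusted p = 0.028) and simvastatin (0.24, adjusted p = 0.0083) and not with lovastatin (0.15, adjusted p = 0.12), where 2.96%, 2.69% and 1.97% of all genes were called higher. Neither call held in fits of the 2 compared groups alone, with adjusted p = 0.32 and 0.31. The fluvastatin call was also lost without fluvastatin replicate 2 (0.18), fluvastatin replicate 3 (0.19) or control replicate 3 (0.16). The lovastatin and simvastatin values were 0.12 and 0.2 without control replicate 3, and the second was still called (adjusted p = 0.021). From 2 to 20 µM CLDN4 rose by 1.86, 1.49 and 1.53 with fluvastatin, lovastatin and simvastatin (SE 0.05, adjusted p at most 1.1e-13), beside 32%, 23.7% and 29.4% of all genes called higher.

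CLDN7, a claudin found along the lateral membrane as well as at tight junctions, rose with every statin at 20 µM in PANC-1. Its control libraries had 37.6, 39.8 and 28.1 FPKM. With 20 µM they had 178, 193 and 179 FPKM with fluvastatin, 92.3, 90.7 and 107 FPKM with lovastatin, and 129, 118 and 122 FPKM with simvastatin. No 20 µM library overlapped a control or 2 µM library, and the 3 statins did not overlap each other. The differences from control were 2.36, 1.44 and 1.79 (SE 0.11 each, adjusted p = 1.8e-12, 6.2e-09 and 2.2e-10), and 2.21, 1.29 and 1.64 without control replicate 3. At 2 µM the group means were 43.4 ± 4.22, 45.0 ± 2.89 and 45.4 ± 2.44 FPKM, and the differences of 0.31, 0.36 and 0.37 were not called (adjusted p = 0.14, 0.088 and 0.064), nor were those of 0.16, 0.21 and 0.22 without control replicate 3. Without control replicate 2 those of lovastatin (0.46, adjusted p = 0.036) and simvastatin (0.47, adjusted p = 0.028) were called. From 2 to 20 µM CLDN7 rose by 2.06, 1.08 and 1.42.

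In MiaPaCa-2 CLDN7 was low everywhere, between 0.0129 and 2.31 FPKM, and it passed the expression filter only through treated libraries. It was listed at the minimum in 5 of the 19 libraries, both controls among them, so no fold is given. A gene kept through its treated libraries had to stand above such controls, so its differences from control are a description with no test. At 2 µM it had 0.812, 2.31 and 2.26 FPKM with fluvastatin, 0.835, 1.15 and 0.0766 FPKM with lovastatin, and 1.05, 0.611 and 2.27 FPKM with simvastatin. At 20 µM it had 1.29, 1.24 and 1.20 FPKM with fluvastatin, 0.0541 and 0.537 FPKM with lovastatin, and 1.21, 0.0549 and 0.703 FPKM with simvastatin. The fluvastatin and simvastatin libraries at 2 µM and the fluvastatin libraries at 20 µM all lay above both controls. The lovastatin groups and simvastatin at 20 µM each held a library at or under 0.0766 FPKM. On the log2 scale the differences from control ran from 0.29 with lovastatin at 20 µM to 1.37 with fluvastatin at 2 µM. The last was 0.8 without fluvastatin 2 µM replicates 2 and 3, which held EPCAM at 29.3 and 19.3 FPKM. ELP5, a subunit of the Elongator complex whose end meets that of CLDN7, fell in MiaPaCa-2 with all 6 treatments, by 0.5 to 0.7, and none of its 6 differences in PANC-1, from -0.23 to 0.22, was called.

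CLDN3, the neighbour of CLDN4 on chromosome 7, was the least abundant of the 3 claudins that PANC-1 carried, and it rose there with every statin at 20 µM. Control libraries had 3.66, 2.38 and 2.03 FPKM. With 20 µM they had 16.1, 17.7 and 16.7 FPKM with fluvastatin, 8.62, 8.64 and 8.22 FPKM with lovastatin, and 13.3, 15.0 and 10.6 FPKM with simvastatin. Again no 20 µM library overlapped a lower dose, and the statins did not overlap each other. The differences from control were 2.3, 1.39 and 1.93 (SE 0.18 each, adjusted p = 2.7e-09, 4.4e-06 and 4.9e-08), and 2.17, 1.26 and 1.8 without control replicate 3. At 2 µM the libraries ran from 2.24 to 4.48 FPKM, overlapping the controls, and the differences of 0.44, 0.16 and 0.33 were not called (adjusted p = 0.2, 0.75 and 0.38), nor were those of 0.31, 0.03 and 0.2 without control replicate 3. From 2 to 20 µM CLDN3 rose by 1.86, 1.22 and 1.6.

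In MiaPaCa-2 CLDN3 did not pass the filter of 1 FPKM in 3 libraries and was not tested within that line, so 3 of the 4 members were tested there and 4 of 4 in PANC-1. It was listed at the minimum in 12 of 19 libraries. Only fluvastatin 2 µM replicates 2 and 3 reached 1 FPKM, with 1.42 and 1.22 FPKM, and these are the libraries with the high EPCAM values. ABHD11, the other neighbour of CLDN3, rose in MiaPaCa-2 at 20 µM by 1.12, 1.15 and 0.42 with fluvastatin, lovastatin and simvastatin. In PANC-1, where CLDN3 and CLDN4 rose, its values were -0.05, 0.08 and -0.11, or 0.18, 0.31 and 0.12 without control replicate 3, and were not called.

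**Figure D3:**
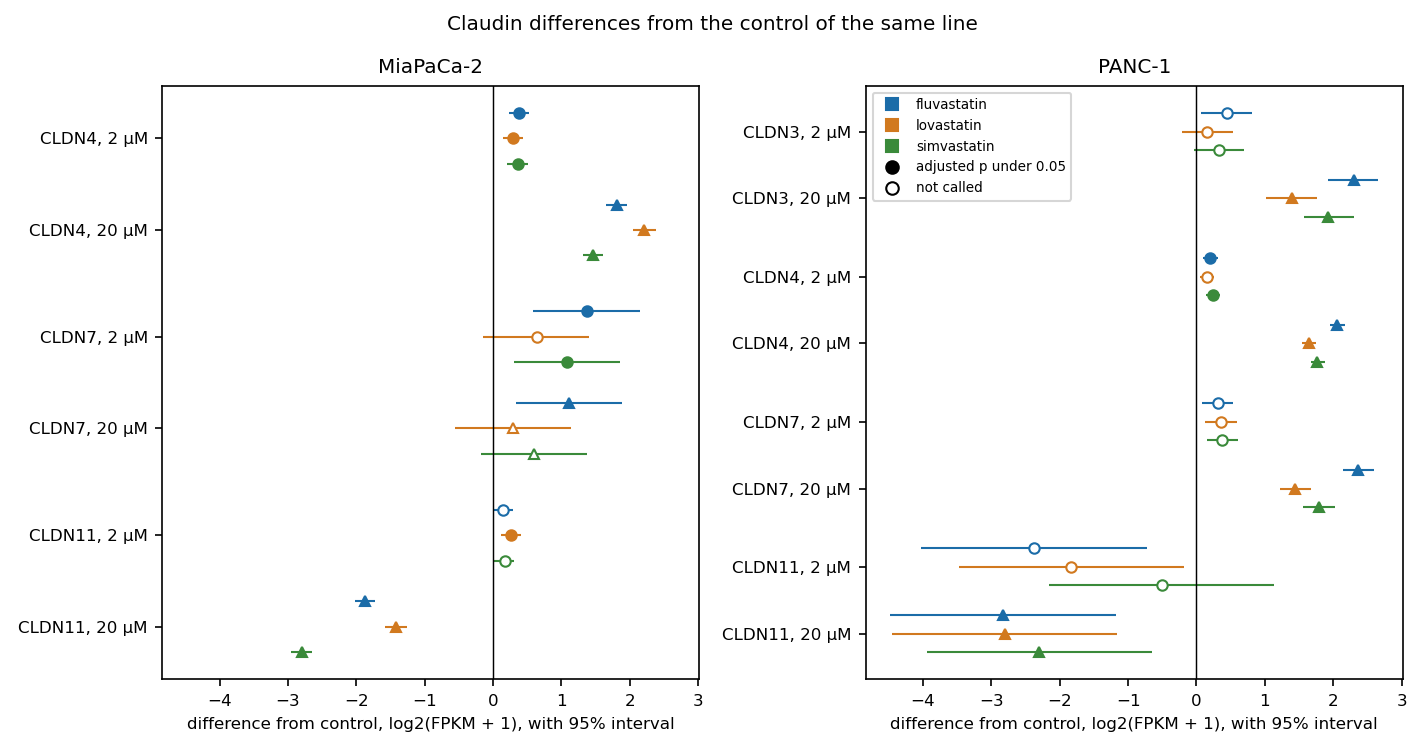
Difference of each tested claudin from the control of its line on the log2(FPKM + 1) scale, with 95% intervals from limma, by statin (colour) and dose (circles 2 µM, triangles 20 µM). Filled symbols have an adjusted p under 0.05. CLDN7 in MiaPaCa-2, kept through its treated libraries, is shown as a description, as is CLDN11 in PANC-1 at 20 µM, kept mainly through control and 2 µM libraries. CLDN11 at 20 µM lies between -1.42 and -2.8 in MiaPaCa-2, and its PANC-1 intervals are wide, from a fit that holds the control library at 65.6 FPKM.

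CLDN11 was the most abundant of the 4 claudins in untreated MiaPaCa-2 and fell there with every statin at 20 µM. Its level was 236 and 252 FPKM in the control libraries. With 20 µM it was 67.3, 63.0 and 67.8 FPKM with fluvastatin, 83.6 and 98.6 FPKM with lovastatin, and 35.8, 33.4 and 33.4 FPKM with simvastatin. The 3 statin groups did not overlap each other, the controls or the 2 µM groups. CLDN11 fell by 1.87 with fluvastatin (SE 0.069, adjusted p = 1.4e-12), by 1.42 with lovastatin (SE 0.076, adjusted p = 1.9e-10) and by 2.8 with simvastatin (SE 0.069, adjusted p = 1.1e-14), so that the simvastatin level was 6.96 times below the control. Of all genes tested, 32.5%, 30.1% and 33.1% were called lower. With 20 µM CLDN4 overtook it: in the simvastatin group the means were 119 ± 4.11 FPKM for CLDN4 and 34.2 ± 1.38 FPKM for CLDN11 (SD, n = 3).

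At 2 µM CLDN11 in MiaPaCa-2 was not lower than in the control. It had 261, 282 and 269 FPKM with fluvastatin, 294, 294 and 292 FPKM with lovastatin, and 262, 279.8 and 281 FPKM with simvastatin, so that all 9 libraries lay above both controls. The difference of 0.27 with lovastatin was called (SE 0.069, adjusted p = 0.0053), but not without control replicate 1 (0.22, adjusted p = 0.072). Those of 0.15 with fluvastatin (0.1 without its replicates 2 and 3) and 0.17 with simvastatin were not called (adjusted p = 0.094 and 0.058), and the second was called without simvastatin replicate 1 (0.2, adjusted p = 0.048) or either library of lovastatin at 20 µM (adjusted p = 0.029 and 0.03). With all 42 columns as deposited both were called, with adjusted p = 0.021 and 0.011. From 2 to 20 µM CLDN11 fell, with values of -2.02, -1.68 and -2.97 for fluvastatin, lovastatin and simvastatin (adjusted p at most 9.3e-12), beside 30.4%, 27.9% and 34.4% of all genes called lower.

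In PANC-1 CLDN11 was highest in the control library that stood apart. Control replicate 3 had 65.6 FPKM, or 26% of the MiaPaCa-2 median of CLDN11, and its 36 MiaPaCa-2 genes stood at 21%. Controls 1 and 2 had 2.92 and 1.29 FPKM. The next highest were the simvastatin 2 µM libraries, with 4.51, 3.64 and 7.05 FPKM, or 1.79%, 1.44% and 2.79% of the MiaPaCa-2 median, where the 36 genes stood at 1.96%, 1.24% and 2.15%. Lovastatin at 2 µM had 0.979, 1.03 and 2.34 FPKM and fluvastatin at 2 µM 0.954, 0.13 and 0.912 FPKM. At 20 µM the 9 libraries ran from 0.0432 to 1.86 FPKM, the highest being simvastatin replicate 3, whose 36 genes stood at 2.39%. The part of those genes' level in the CLDN11 values was not tested.

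CLDN11 reached 1 FPKM in 9 of 21 PANC-1 libraries, all 3 controls among them, but at 20 µM only in simvastatin replicate 3. It thus passed the filter there mainly through control and 2 µM libraries, so its 20 µM differences from both are a description with no test. With all 3 controls the fit called it lower at 20 µM with fluvastatin (-2.83, SE 0.78), lovastatin (-2.8) and simvastatin (-2.3), where 31%, 22.4% and 30.2% of all genes were called lower. Without control replicate 3 the values were -1.34, -1.31 and -0.8, the last not called. The simvastatin call was also lost without simvastatin replicate 1 (-1.94, adjusted p = 0.07). In fits of the 2 compared groups alone none of the 3 was called (adjusted p = 0.058, 0.083 and 0.14). At 2 µM the differences of -2.38, -1.83 and -0.51 were not called. Without control replicate 3 they were -0.89, -0.33 and 0.98, also not called, and without control replicate 2 that of fluvastatin was called (-3.32, adjusted p = 0.017). From 2 to 20 µM the CLDN11 differences, also a description, were -0.45, -0.98 and -1.78 with fluvastatin, lovastatin and simvastatin. The last was -2.15 without simvastatin 20 µM replicate 3. The highest PANC-1 level outside control 3, 7.05 FPKM, was below the lowest MiaPaCa-2 level, 33.4 FPKM.

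The order of group means showed where the statins separated. For CLDN4 the 6 groups at 20 µM took the first 6 of 14 places, from 282 ± 8.27 FPKM with fluvastatin in PANC-1 to 119 ± 4.11 FPKM with simvastatin in MiaPaCa-2, and none of these neighbours overlapped. The 2 µM groups followed line by line. In PANC-1 fluvastatin overlapped simvastatin and lovastatin. In MiaPaCa-2 fluvastatin, at 51.1 to 60.0 FPKM, overlapped simvastatin and also lovastatin, at 51.7 to 52.4 FPKM. For CLDN7 and CLDN3 the first 3 places were PANC-1 at 20 µM, in the order fluvastatin, simvastatin and lovastatin with no overlap, and the 2 µM groups of PANC-1 overlapped each other and, at the lower end, the control. For CLDN11 the first 7 places were the MiaPaCa-2 groups, from 293.5 ± 1.09 FPKM with lovastatin at 2 µM to 34.2 ± 1.38 FPKM with simvastatin at 20 µM, and among these 7 only simvastatin and fluvastatin at 2 µM overlapped.

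The statins were compared in pairs at the same dose, 6 pairs per line. At 2 µM no pair was called for any tested claudin, with the smallest adjusted p at 0.5, and of all genes 0%, 0.562% and 0.293% were called in the MiaPaCa-2 pairs and 0.0116%, 0.0116% and 0% in the PANC-1 pairs. The intervals for CLDN4 at 2 µM lay between -0.12 and 0.22 over the MiaPaCa-2 pairs and between -0.15 and 0.19 over the PANC-1 pairs. For CLDN11 in PANC-1 they were wider, as for fluvastatin minus simvastatin, which was -1.87 with an interval of -3.52 to -0.22 (adjusted p = 0.69). Without control replicate 3, which is in neither group but adds to the shared spread, the same CLDN11 difference was called (adjusted p = 0.03).

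At 20 µM in MiaPaCa-2 all 3 pairs differed for CLDN4 and CLDN11. CLDN4 with lovastatin stood above fluvastatin (fluvastatin minus lovastatin -0.4, SE 0.071, adjusted p = 0.00062) and above simvastatin (simvastatin minus lovastatin -0.75, SE 0.071, adjusted p = 6.8e-07), and fluvastatin above simvastatin (0.35, SE 0.063, adjusted p = 0.00022). CLDN11 was lowest with simvastatin, below lovastatin by a value of -1.38 (SE 0.069, adjusted p = 6.3e-10) and below fluvastatin (fluvastatin minus simvastatin 0.93, SE 0.062, adjusted p = 3.6e-09), and fluvastatin lay below lovastatin (-0.45, SE 0.069, adjusted p = 0.00017). Simvastatin and lovastatin, the pair that differs by a methyl group, thus differed in both genes, with the smaller response to simvastatin for CLDN4 and the larger for CLDN11. In the pairs fluvastatin minus lovastatin, fluvastatin minus simvastatin and simvastatin minus lovastatin, 23.5%, 56.2% and 37.3% of all genes were called. CLDN7 was called in no pair, with intervals of 0.04 to 1.6, -0.19 to 1.2 and -0.46 to 1.09.

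In PANC-1 at 20 µM the largest responses were to fluvastatin. Fluvastatin stood above lovastatin for CLDN3 (0.91, SE 0.18, adjusted p = 0.00068), CLDN4 (0.41, SE 0.05, adjusted p = 4.8e-06) and CLDN7 (0.92, SE 0.11, adjusted p = 3.6e-06), and above simvastatin for CLDN4 (0.29, adjusted p = 0.00013) and CLDN7 (0.57, adjusted p = 0.00034). For CLDN3 fluvastatin minus simvastatin was 0.36, with an interval of -0.01 to 0.73 and an adjusted p of 0.099. Simvastatin stood above lovastatin for CLDN3 (0.55, SE 0.18, adjusted p = 0.02) and CLDN7 (0.35, SE 0.11, adjusted p = 0.017), while CLDN4 had 0.12, with an interval of 0.02 to 0.23, and was not called (adjusted p = 0.064), though it was without control replicate 3 (adjusted p = 0.034). The CLDN7 call was lost without lovastatin replicate 1 (adjusted p = 0.059) or 2 (0.066) or simvastatin replicate 1 (0.057), and the CLDN3 call without lovastatin replicate 3 (0.057) or simvastatin replicate 1 (0.052) or 2 (0.085). CLDN11 was called in no pair, with intervals that ran from -2.18 to 2.16. In the same 3 pairs 30.7%, 47.5% and 38.5% of all genes were called.

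**Figure D4:**
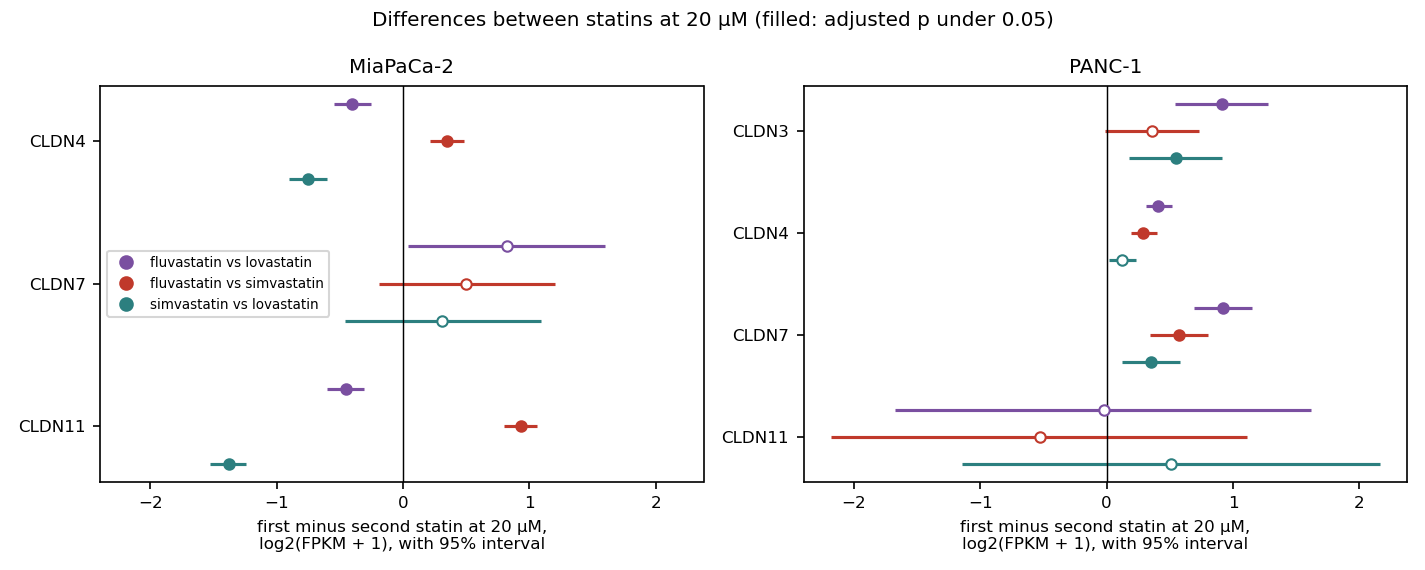
Differences between pairs of statins at 20 µM on the log2(FPKM + 1) scale, first minus second, with 95% intervals from limma, for the claudins tested in each line. Filled symbols have an adjusted p under 0.05. In MiaPaCa-2 all CLDN4 and CLDN11 pairs are filled, and in PANC-1 fluvastatin minus lovastatin lies above 0 for CLDN3, CLDN4 and CLDN7.

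The difference between the lines was tested as the MiaPaCa-2 response minus the PANC-1 response. For CLDN4 the lines responded in the same direction and differed in size. The MiaPaCa-2 response was smaller with fluvastatin at 20 µM (-0.25, SE 0.077, adjusted p = 0.012) and simvastatin (-0.31, SE 0.077, adjusted p = 0.0018) and larger with lovastatin (0.56, SE 0.081, adjusted p = 3e-06). Without PANC-1 control replicate 3 the values were -0.21, -0.27 and 0.6, all called. The fluvastatin and simvastatin differences lost their calls in fits of the groups compared alone (adjusted p = 0.073 and 0.05), and the first without MiaPaCa-2 control replicate 1 (-0.2, adjusted p = 0.1). At 2 µM no CLDN4 difference was called, the largest being 0.18 with fluvastatin (adjusted p = 0.081). That one was called without MiaPaCa-2 fluvastatin replicate 1 (0.23, adjusted p = 0.02) or PANC-1 control replicate 3 (0.22, adjusted p = 0.04). In the joint fit 34.2%, 32.5% and 46.1% of all genes differed between the lines at 20 µM with fluvastatin, lovastatin and simvastatin, and 29.7%, 33.8% and 32.6% at 2 µM.

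For CLDN3 and CLDN7 the difference between the lines depends on the low end of the scale. CLDN3 passed the joint filter through PANC-1 and was listed at the minimum in 12 of 19 MiaPaCa-2 libraries, and CLDN7 was listed there in both MiaPaCa-2 controls, so the values at 20 µM are a description. The difference for CLDN3 was -2.09, -1.31 and -2.01 with fluvastatin, lovastatin and simvastatin (SE 0.32, 0.33 and 0.32), and -1.96, -1.18 and -1.88 without PANC-1 control replicate 3. For CLDN7 it was -1.26, -1.15 and -1.19 (SE 0.37, 0.39 and 0.37), and -1.11, -1.01 and -1.04 without that library. With a pseudocount of 0.1 the CLDN7 values were 0.87, -0.3 and 0.15, and the CLDN3 values were -1.92, -1.34 and -2.68. At 2 µM the CLDN7 difference with fluvastatin was 1.06 (SE 0.37), and 0.49 without MiaPaCa-2 fluvastatin 2 µM replicates 2 and 3.

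For CLDN11 the difference between the lines was called with fluvastatin at 2 µM (2.53, SE 0.9, adjusted p = 0.034). The call was lost without PANC-1 control replicate 3 (1.04, adjusted p = 0.06), and in fits of the groups compared alone (adjusted p = 0.21). It was also lost, at values of 2.27 to 2.58, without either MiaPaCa-2 control, MiaPaCa-2 fluvastatin replicate 2 or 3 or both, or PANC-1 fluvastatin replicate 2. With lovastatin at 2 µM it was 2.09 and not called (adjusted p = 0.072). That one was called without PANC-1 control replicate 1 (2.64, adjusted p = 0.025) or 2 (3.03, adjusted p = 0.0038), and was 0.6 (adjusted p = 0.28) without replicate 3. At 20 µM the CLDN11 differences hold the PANC-1 values given above as a description, so they too are a description with no test. They were 0.96, 1.39 and -0.5 with fluvastatin, lovastatin and simvastatin. Without PANC-1 control replicate 3 they were -0.53, -0.1 and -1.99, and without PANC-1 control replicate 2 that of lovastatin was 2.33. Over all alternatives they ran from -0.53 to 2.7, from -0.1 to 3.19 and from -1.99 to 0.6.

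Of 20 other claudin genes listed, 4 were in the table. CLDN1, a claudin of skin and ducts, went from 8.54 ± 0.493 FPKM (n = 2) in untreated MiaPaCa-2 to 32.9 ± 1.96 FPKM (n = 2) with lovastatin and 41.0 ± 5.83 FPKM (n = 3) with simvastatin at 20 µM, and had 8.33 ± 0.47 FPKM with fluvastatin. It rose by 1.83 and 2.13 (adjusted p = 3.8e-08 and 1.3e-09), while the fluvastatin value of -0.03 was not called (adjusted p = 0.85). Fluvastatin minus lovastatin was -1.86 and fluvastatin minus simvastatin -2.16 (adjusted p = 6.9e-08 and 5.1e-10). In PANC-1 CLDN1 ran from 20.5 to 35.6 FPKM and rose only with lovastatin at 20 µM (0.49, adjusted p = 0.0018, and 0.51 without control replicate 3), with 0.19 and 0.1 for fluvastatin and simvastatin. The MiaPaCa-2 response of CLDN1 exceeded that of PANC-1 by 1.34 with lovastatin (adjusted p = 1.2e-06) and by 2.03 for simvastatin (adjusted p = 9.5e-11), or by 1.32 and 2.01 without PANC-1 control replicate 3.

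CLDN15, a claudin of the intestine that lets sodium pass, rose with all 3 statins at 20 µM in both lines, by 0.41, 0.58 and 0.78 in MiaPaCa-2 and by 0.61, 0.82 and 0.96 in PANC-1. Its levels were 8.03 ± 1.05 FPKM in the MiaPaCa-2 control and 1.22 ± 0.403 FPKM in the PANC-1 control. CLDN12, a claudin without the usual binding motif at its end, rose in PANC-1 by 0.65, 0.6 and 0.41 at 20 µM and in MiaPaCa-2 with lovastatin (0.42) and simvastatin (0.41), with 0.29 for fluvastatin. CLDND1, a claudin domain protein, rose in MiaPaCa-2 at 20 µM by 0.61, 0.59 and 0.46 and in PANC-1 had -0.05, -0.03 and -0.25, of which the last was called lower. Leaving out control replicate 3, the PANC-1 values at 20 µM were 0.75, 0.97 and 1.11 for CLDN15, 0.63, 0.59 and 0.4 for CLDN12 and -0.09, -0.08 and -0.3 for CLDND1, with the same calls. Of these 4 genes, 2 were called higher with all 3 statins at 20 µM in each line, CLDN15 and CLDND1 in MiaPaCa-2 and CLDN15 and CLDN12 in PANC-1, beside 18.6% and 16.3% of all genes. The median of their mean changes was 0.57 and 0.41, against 0.02 and -0.01 over all genes. In MiaPaCa-2 the count was 1 without fluvastatin 20 µM replicate 1, lovastatin 20 µM replicate 2 or control replicate 2, and in PANC-1 it was 1 without control replicate 1 or 2. These genes and the other junction genes were tested against the same control libraries as the claudins.

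**Figure D5:**
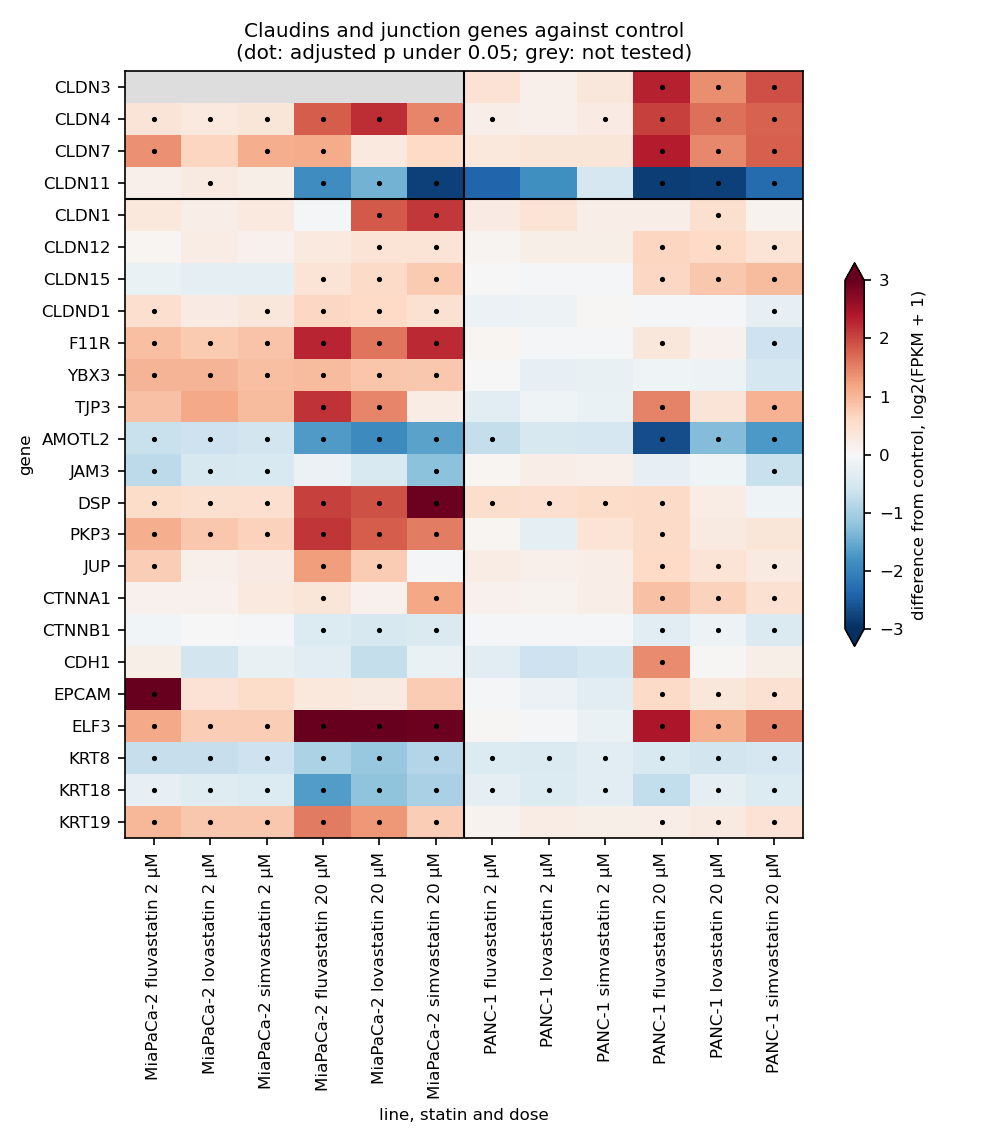
Colour gives the difference of each gene from the control of its line on the log2(FPKM + 1) scale, in columns of line, statin and dose in µM, with dots at an adjusted p under 0.05 and grey where a gene was not tested. The top rows are the 4 claudins. ELF3 is red at 20 µM in both lines, and AMOTL2 and CLDN11 are blue. With or without dots, CLDN7 in MiaPaCa-2, TJP3 in PANC-1 and CLDN11 in PANC-1 at 20 µM are a description. Those PANC-1 CLDN11 values were -1.34, -1.31 and -0.8 without control replicate 3.

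Of 33 other tight junction genes listed, 10 were tested. At 20 µM in MiaPaCa-2, 2 rose with all 3 statins and 1 fell, and in PANC-1 none rose and 1 fell, where 18.6%, 21.1%, 16.3% and 14.9% of all genes did so, so that these counts are near or below the share over all genes. F11R, which encodes the junctional adhesion molecule A, rose in MiaPaCa-2 by 2.29, 1.6 and 2.24, from 3.92 ± 1.5 FPKM in the control. In PANC-1 it rose with fluvastatin (0.33), had 0.14 with lovastatin and fell with simvastatin (-0.63), and without control replicate 3 the fluvastatin value of 0.24 was not called (adjusted p = 0.18). YBX3, a factor that binds at tight junctions, rose in MiaPaCa-2 by 0.86 on average. AMOTL2, a member of the angiomotin family and a known target of YAP, fell by 1.74 on average in MiaPaCa-2 and by 1.9 in PANC-1, or 1.93 there without control replicate 3. TJP3, a scaffold protein of the tight junction, rose in MiaPaCa-2 with fluvastatin (2.17) and lovastatin (1.47), from 0.0725 and 1.28 FPKM in the controls. The value of 0.0725 FPKM equals the lowest listed value of control replicate 1. TJP3 had 1.83 and 5.63 FPKM with lovastatin, and 0.594 to 1.04 FPKM with simvastatin, which lies between the controls. In PANC-1 its differences at 20 µM were 1.49 with fluvastatin (1.59 without control replicate 3) and 1.04 with simvastatin (1.15). No PANC-1 library of the control or 2 µM groups had over 0.672 FPKM, so TJP3 passed the filter there through 20 µM libraries. Its PANC-1 values are therefore a description with no test. At 2 µM in MiaPaCa-2, 2 of the 10 rose with all 3 statins, F11R and YBX3, and 2 fell, AMOTL2 and JAM3, beside 16.8% and 16.7% of all genes. In PANC-1 at 2 µM none did, beside 1.33% higher and 0.325% lower. The 2 that fell in MiaPaCa-2 at 2 µM became 0 or 1 in 12 of 19 fits that left out 1 library, control replicate 1 and simvastatin 2 µM replicate 2 giving 0. With all 42 columns 4 tight junction genes rose in MiaPaCa-2 at 20 µM. TJP1 and OCLN, which encode ZO-1 and occludin, were not analysed here.

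Of 26 adherens junction and desmosome genes listed, 12 passed the filter in MiaPaCa-2, and PANC-1 had 13. At 20 µM 3 rose and 1 fell with all 3 statins in MiaPaCa-2, and 2 rose and 2 fell in PANC-1, beside 18.6%, 21.1%, 16.3% and 14.9% of all genes. These counts are near or below those shares in both lines. The desmosomal genes DSP and PKP3 rose in MiaPaCa-2 by 2.3 and 1.83 on average, and MLLT4, which encodes afadin, by 1.07. In PANC-1 CTNNA1, which encodes alpha-catenin, and JUP, plakoglobin, rose by 0.67 and 0.43, and by 0.78 for CTNNA1 without control replicate 3, where JUP (0.32) was no longer called with all 3 statins. CTNNB1, beta-catenin, fell by 0.44 and 0.3 in the 2 lines, and PVRL2, a nectin, fell by 0.45 in PANC-1. E-cadherin mRNA, CDH1, rose in PANC-1 with fluvastatin (1.42, adjusted p = 5e-04), to 111 ± 27.9 FPKM from a control mean of 41.0 FPKM (34.4 to 53.6 FPKM over 3 libraries), and had 0.04 and 0.18 with lovastatin and simvastatin. The CDH1 values were 1.32 (adjusted p = 0.0032), -0.05 and 0.08 without control replicate 3. At 2 µM 4 rose in MiaPaCa-2, among them DSG2, PKP3 and DSC2, and 1, DSP, in PANC-1, beside 16.8% and 1.33% of all genes. Without MiaPaCa-2 fluvastatin 2 µM replicates 2 and 3, DSC2 was no longer called with all 3 statins. In MiaPaCa-2 at 2 µM the 4 became 1 without control replicate 2 and 2 without control replicate 1 or simvastatin 2 µM replicate 3. In PANC-1 at 20 µM the 2 that rose became 1 without control replicate 1, control replicate 3 or simvastatin 20 µM replicate 3. The 2 that fell became 0 without control replicate 1 or 2, and 1 without lovastatin 20 µM replicate 1 or 2 or simvastatin 20 µM replicate 2 or 3.

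Of 8 epithelial markers tested at 20 µM, 2 rose and 3 fell with all 3 statins in MiaPaCa-2, and 4 rose and 3 fell in PANC-1, beside 18.6%, 21.1%, 16.3% and 14.9% of all genes. ELF3, an epithelial transcription factor, rose by 3.35 and 1.65 on average, and the keratin genes KRT8 and KRT18 fell in both lines, by 0.99 and 1.29 in MiaPaCa-2 and by 0.5 and 0.47 in PANC-1. KRT19 rose by 1.2 in MiaPaCa-2, SPINT2, a protease inhibitor, fell there by 0.61, and in PANC-1 SPINT2 rose by 0.51, EPCAM by 0.45, and GRHL3, an epithelial transcription factor, fell by 1.39. At 2 µM KRT8 and KRT18 fell in both lines, by 0.66 and 0.34 in MiaPaCa-2 and by 0.39 and 0.34 in PANC-1, and ELF3 and KRT19 rose in MiaPaCa-2 by 0.87 and 0.86. At that dose 16.8% and 16.7% of all genes were called higher and lower in MiaPaCa-2, and 1.33% and 0.325% in PANC-1. Mesenchymal markers numbered 9 in the MiaPaCa-2 fit and 10 in that of PANC-1. In MiaPaCa-2 1 of them rose, VIM, which encodes vimentin, by 0.34, while in PANC-1 1 rose, S100A4, a calcium-binding protein, by 2.04, and 1 fell, AXL, a receptor tyrosine kinase, by 1.18, and these counts are below the shares over all genes. At 2 µM S100A4 rose by 0.57 in MiaPaCa-2 and TGFBI, an extracellular matrix protein, by 0.42 in PANC-1. Without PANC-1 control replicate 3 only 1 epithelial gene, ELF3 (1.6), rose with all 3 statins in PANC-1 at 20 µM, while EPCAM (0.32), SPINT2 (0.31) and KRT19 (0.24) did not pass with all 3. Without it the PANC-1 means were -0.62 for KRT8, -0.47 for KRT18 and -1.46 for GRHL3 at 20 µM, and 2.46 for S100A4 and -1.25 for AXL. The VIM count became 0 without either MiaPaCa-2 control or either library of lovastatin at 20 µM, and the TGFBI count moved in 18 of 21 fits that left out 1 library.

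The genes whose pattern was most like that of each claudin were found by Pearson's r of log2 values over the independent libraries of a line. The 20 µM libraries lie apart from the rest for many genes in this table, so r is given as a description with no test. In PANC-1 (21 libraries) the closest to CLDN4 were RHOB (0.997), TSC22D3 (0.996) and CYP51A1 (0.995), an enzyme of cholesterol synthesis. Closest to CLDN7 were FLNC, PSAP and MLXIP (0.987, 0.987 and 0.986), and to CLDN3 KLF4, MED8 and MLXIP (0.975, 0.974 and 0.974). Among the members, r was 0.963 between CLDN3 and CLDN4, 0.963 between CLDN3 and CLDN7 and 0.978 between CLDN4 and CLDN7. For CLDN11 in PANC-1 the closest were COL1A2, ALDH1A1 and SERPINB9 (0.959, 0.937 and 0.928), and 0.888, 0.842 and 0.794 over the 20 libraries without control 3. In MiaPaCa-2 (19 libraries) CAPN2, RPL13P2 and JOSD2 were closest to CLDN4 (0.984, 0.981 and 0.978), and IFITM1, STMN3 and CYB5B to CLDN11 (0.99, 0.988 and 0.986). For CLDN7, near 0 there, PRSS16, TSKU and PCAT6 were closest, with only 0.76, 0.724 and 0.724. CLDN4 and CLDN11 ran opposite to each other in MiaPaCa-2, with r = -0.828, and CLDN4 and CLDN7 had -0.038.

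Markers of other cell types were read beside these results. Of 9 myelin and oligodendrocyte markers listed, 2 were in the table, MBP and CNP, both of them also expressed outside myelin, and their summed level was 76.4 to 129 FPKM in MiaPaCa-2 and 63.8 to 95.5 FPKM in PANC-1. Of 8 fibroblast markers 3 were in the table, with sums of 26.0 to 217 FPKM in MiaPaCa-2 and 61.9 to 194 FPKM in PANC-1. Of 8 leukocyte and endothelial markers 2 were in the table, CD68 and CD14, with sums of 12.3 to 44.5 and 26.5 to 59.9 FPKM.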

How the data were processed

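RNA-seq libraries of 2 lines were analysed from 1 table of 8738 genes in 42 libraries, 14 groups of 3, with 0 columns left unmapped. The authors deposited log2 values of FPKM. The submitters' processing notes name Cufflinks 1.1, Cuffdiff, TopHat2 2.0.13 and the build hg19. Per the labels' protocols, RNA was isolated with RNeasy columns, selected with poly-T beads and sequenced as paired ends. No value is at or below 0 (lowest 0.00424086), so the deposited log2 values were taken to be log2(FPKM + 1), although the pseudocount is stated nowhere. At least 97.1% of the values in a column recur in 5 or more columns, as in a table scaled to 1 distribution, a step that no source names. The depth of each library is unknown, so no counting error can be given. Neither treatment length nor vehicle is stated in the labels.

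The 2 columns that were weighted sums of others, MiaPaCa-2 control replicate 3 and MiaPaCa-2 lovastatin 20 µM replicate 3, were left out, leaving 40. Within each line a gene was tested if 3 or more independent libraries had 1 FPKM or more (8534 in MiaPaCa-2, 8615 in PANC-1, 8738 in the joint fit), using limma 3.58.1 in R 4.3.3, 1 mean per group, trend and robust moderation, two-sided, with Benjamini-Hochberg adjustment over all genes tested and a threshold of 0.05. Intervals cover 95%. The script was tested on simulated data. Figures and descriptions used python 3.11.15, numpy 2.4.6, pandas 2.3.3 and matplotlib 3.10.9. The members and lists were chosen with earlier results of these data known. Named were the members, other claudins, CDH1, EPCAM, up to 3 genes per list, line, dose and direction with the largest mean change among those called with all 3 statins, and the 3 genes most correlated with each member. ABHD11, ELP5, TJP3 and F11R in PANC-1 were named after their values were seen. Alternatives were another pseudocount, no filter, other scalings, a replicate block, no trend, all 42 columns, only the groups compared and leaving out each library. In the lists, 1 tight junction gene and 1 whole list are not reported here. Same-numbered libraries did not deviate together (median r of 0 in both lines), so the main fit did not pair them. Whether the numbers mark shared cultures or runs cannot be told from this.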

Additional observations from a re-analysis of the deposited data

Results flagged for a closer look

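In the joint fit the difference between the MiaPaCa-2 and PANC-1 responses of a claudin was called in 11 of 24 cases. Of all genes, 29.7% to 46.1% were called in each comparison, so this count is not read as a result about claudins. The 11 include the CLDN3 and CLDN7 values that are a description, and a CLDN11 call that was lost without PANC-1 control replicate 3. Values are the MiaPaCa-2 response minus the PANC-1 response on the log2(FPKM + 1) scale, with limma adjusted p. For CLDN4 at 20 µM they were -0.25 with fluvastatin (adjusted p = 0.012), 0.56 with lovastatin (3e-06) and -0.31 with simvastatin (0.0018), so the lovastatin difference ran opposite to the other two. For CLDN3 they were -2.09, -1.31 and -2.01 with fluvastatin, lovastatin and simvastatin at 20 µM. CLDN3 was listed at the minimum in 12 of 19 MiaPaCa-2 libraries and CLDN7 in both MiaPaCa-2 controls, so the values of these genes are a description. For CLDN7 they were -1.26, -1.15 and -1.19 at 20 µM and 1.06 with fluvastatin at 2 µM, the last with EPCAM at 29.3 and 19.3 FPKM in replicates 2 and 3 of that MiaPaCa-2 group. With a pseudocount of 0.1 the CLDN7 values at 20 µM were 0.87, -0.3 and 0.15 and the CLDN3 values -1.92, -1.34 and -2.68. These values too are a description with no test. The count of lower calls, which includes calls on such values, went from 8 to 3. For CLDN11 the value was 2.53 with fluvastatin at 2 µM, and 1.04 (adjusted p = 0.06) without PANC-1 control replicate 3, where CLDN11 had 65.6 FPKM. The part of those libraries in the differences was not tested.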

How the results depend on the processing

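Over 132 results for the 4 claudins and 4383 values under alternatives, 4300 kept their direction and their side of the threshold or stayed uncalled, 52 lost a call, 29 gained one and 2 reversed. The 2 reversals came with a pseudocount of 0.1, where the CLDN7 line differences at 20 µM became 0.87 with fluvastatin and 0.15 with simvastatin. Replicate numbers were not used to pair samples in the main fit. With the replicate block the CLDN11 line difference with lovastatin at 2 µM was called (2.09, limma adjusted p = 0.043). Of the values given as a description, CLDN11 in PANC-1 with simvastatin, 20 against 2 µM, was -1.78. The CLDN7 line difference with fluvastatin at 2 µM was 1.03. The block gave 1 claudin call lower at 20 against 2 µM in PANC-1 (0 before), 1 adherens gene lower (2) and 2 mesenchymal genes lower (1) at 20 µM in PANC-1. Counts below are of genes or calls, with the count of the main fit in parentheses, and the cause of each change was not tested. They include calls on values given above as a description with no test. A pseudocount of 0.1 gave 1 (0) claudin call lower at 20 against 2 µM in PANC-1 and 3 (8) line differences lower in MiaPaCa-2. No filter gave 1 (0) and 2 (1) adherens genes lower in MiaPaCa-2 at 2 and 20 µM. Median centring gave 2 (1) mesenchymal genes lower in PANC-1 at 20 µM. Without trend and robust moderation there were 0 (1) mesenchymal genes higher in MiaPaCa-2 at 20 µM, and in PANC-1 1 (2) claudin call higher, 1 (2) epithelial gene lower and 0 (1) mesenchymal genes higher at 2 µM and 1 (2) adherens gene lower at 20 µM. All 42 columns gave 2 (1) mesenchymal genes higher at 2 µM and 4 (2) tight junction genes higher at 20 µM in MiaPaCa-2. Fits of only the groups compared gave, in MiaPaCa-2 at 2 µM, 1 (2) tight junction gene higher, 1 (2) lower and 1 (2) epithelial gene lower. In PANC-1 they gave 0 (2) claudin calls higher at 2 µM, 0 (3) lower at 20 µM and 2 (0) lower at 20 against 2 µM. At 2 µM they gave 0 (1) adherens and 0 (1) mesenchymal genes higher and 0 (2) epithelial genes lower, and at 20 µM 1 (2) adherens gene higher, 0 (2) lower, 2 (4) epithelial genes higher and 2 (1) mesenchymal genes lower. Without MiaPaCa-2 fluvastatin 2 µM replicates 2 and 3, an alternative chosen after seeing the data, there were 1 (2) tight junction gene lower at 2 µM, 0 (1) mesenchymal genes higher at 20 µM and 1 (3) line difference higher.

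Leaving out 1 library at a time moved 21 of 64 counts by over 1.5 times, with these ranges. For claudin calls they were 1 to 4 line differences higher (3), and in PANC-1 1 to 4 higher (2) and 0 to 1 lower (0) at 2 µM, 0 to 2 lower at 20 against 2 µM (0) and 0 to 1 lower in pairs at 2 µM (0). In MiaPaCa-2 at 2 µM they were 1 to 2 tight junction genes higher (2) and 0 to 2 lower (2), 1 to 4 adherens genes higher (4), and 1 to 2 epithelial genes higher (2) and 1 to 3 lower (2). At 20 µM they were 1 to 2 other claudins (2) and 0 to 1 mesenchymal genes (1) higher. In PANC-1 at 2 µM they were 0 to 1 tight junction genes lower (0), 1 to 3 epithelial genes lower (2) and 0 to 2 mesenchymal genes higher (1). At 20 µM they were 1 to 2 other claudins (2), 0 to 1 tight junction (0), 1 to 3 adherens (2) and 1 to 5 epithelial genes (4) higher, and 0 to 2 adherens (2) and 1 to 2 mesenchymal genes (1) lower. Where leaving out a library left 1 in a group, that library was assumed to vary like the other groups. Depth is unknown, so values near 0, as for CLDN3 and CLDN7 in MiaPaCa-2 and CLDN11 in PANC-1, have no counting error.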
